A study of Homo sapiens with 2 samples.

Results

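The locus that holds MYC and its long non-coding neighbour PVT1, on band 8q24 of chromosome 8, was represented by 84 of the 42405 probes of the array. Members were taken by name: 1 probe with the RefSeq accession of MYC (NM_002467), 2 probes with that of PVT1 (NR_003367), and 81 probes for 71 long intergenic non-coding RNA (lincRNA) regions on chromosome 8 whose start lies between 127900000 and 129200000 of hg19. The locus itself was selected on the log2 ratios of the comparison described here, because 1 of its lincRNA regions was among the lowest on the array, so these ratios are given as a description and no test was made on them. MYC encodes a transcription factor that pairs with MAX and drives genes of ribosome assembly, metabolism and cell cycle entry. PVT1 is transcribed from the same strand just downstream of MYC, is often gained together with it in tumours, and gives rise to many spliced and circular RNAs. The stretch upstream of MYC is poor in protein-coding genes and is known for enhancers, lincRNAs and inherited risk of prostate cancer.

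RNA came from RWPE-1, a noncancerous human prostate epithelial cell line grown in keratinocyte serum-free medium, transfected either with pre-miR-424, a synthetic precursor of the microRNA miR-424, or with Negative control #1, each at 30 nM. On the array with normal labelling (normal array) the pre-miR-424 RNA carried Cy5 and the control RNA Cy3, and on the dye swap the dyes were exchanged. The labels call the 2 arrays technical replicates, so they counted as 1 replicate of the comparison, no p-value was computed, and an SD between arrays covers labelling and hybridisation error only. Every ratio below is pre-miR-424 over control on the log2 scale, turned to this direction on both arrays, and in a pair of ratios the normal array comes first. In bulk RNA, fewer cells of a type and less RNA per cell cannot be told apart.

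The transfected agent is shown by its mature sequence. The labels do not say which arm was delivered, and the 5p arm, which carries the seed of the miR-15/16 family, is printed with 3 relatives of the 7 human mature microRNAs that share this seed. Sequences are from RefSeq (GRCh38.p14), 5′ to 3′, with bases 2 to 8, the seed, in capitals. hsa-miR-424-5p lies on the minus strand of chromosome X, at 134546680 to 134546701.
hsa-miR-424-5p: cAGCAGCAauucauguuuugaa
hsa-miR-497-5p: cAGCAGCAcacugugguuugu
hsa-miR-15a-5p: uAGCAGCAcauaaugguuugug
hsa-miR-16-5p: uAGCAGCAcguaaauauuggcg

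Over the whole array, 25664 probes were measured, which here means that both RNAs stood well above background on each array and no spot was an outlier. The SD of their log2 ratios was 0.24 (normal array) and 0.27 (swap), and the error of a single array, from the disagreement of the 2, was 0.24. Median Cy3 and Cy5 intensities were 189 and 290 for the normal array and 165 and 314 for the swap, with no saturated spot. All 7 markers of prostate basal epithelium were measured. Of the markers of other cell types, 5 of 6 for stroma, 1 of 3 for endothelium and 2 of 4 for leukocytes were measured.

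Of the 84 probes of the locus, 54 were measured: MYC, both PVT1 probes and 51 lincRNA probes. One lincRNA region at the start of the PVT1 stretch fell at least 2-fold on both arrays, with both of its probes. The probe of MYC and both probes of PVT1 gave opposite signs on the 2 arrays. Their means were −0.01 for MYC and 0.13 and 0.01 for PVT1. In total 2 of 54 probes were at least 2-fold lower on both arrays and 0 were at least 2-fold higher, where 0.0857% of all measured probes were lower and 0.0546% higher by the same rule. Among measured lincRNA probes 0.263% were lower. The locus was chosen by these ratios, so nothing is read from the difference between the shares.

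MYC was measured by 1 probe printed as 10 spots. On the normal array the spots averaged an intensity of 29847 in the control channel (Cy3) and 51026 in the pre-miR-424 channel (Cy5), and on the swap 54255 in the control channel (Cy5) and 24623 in the pre-miR-424 channel (Cy3). Cy5 was the brighter dye on both arrays, whichever RNA it carried. After normalization the log2 ratio was −0.13 on the normal array, with an SD of 0.0464 over spots, and 0.10 on the swap, with an SD of 0.0781.

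The spots of MYC ran from −0.21 to −0.07 on the normal array and from −0.02 to 0.21 on the swap, so the arrays did not overlap and leaned opposite ways. The mean over both arrays was −0.01 ± 0.16 (SD, 2 arrays). The SD between arrays was thus larger than the SD over spots on either array, and no direction was seen for MYC. With arrays centred on their median in place of loess, MYC was 0.33 (normal array) and −0.45 (swap). That scaling left the median of all measured probes at 0.10 and −0.18.

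PVT1 was measured by both of its probes. The brighter probe (A_33_P3248227) had an intensity of 2037 in control and 3981 in pre-miR-424 on the normal array, and 4074.5 in control and 1930 in pre-miR-424 on the swap. Its log2 ratio was 0.36 (normal array) and −0.10 (swap), a mean of 0.13 ± 0.32 (SD, 2 arrays). The second probe (A_33_P3357748, 2 spots) gave 0.08 (normal array) and −0.07 (swap), a mean of 0.01 ± 0.11 (SD, 2 arrays). Both PVT1 probes were higher on the normal array and lower on the swap, which is the reverse of MYC. With opposite signs on the 2 arrays a mean lies below the SD between arrays by construction, so that comparison was not used. No direction was seen for PVT1 with these 2 probes. Whether the lincRNA probes along PVT1, described below, also detect its transcripts was not analysed here.

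The genes with the most similar pair of ratios were found by the distance between ratios on the 2 arrays, over 13813 measured genes each taken by its brightest probe. Nearest to MYC were TRPM5 (distance 0.00231), LOC100129534 (0.0041) and NEMP1 (0.00431), and 1094 genes lay within 0.1. Nearest to PVT1 were DECR2 (0.0074), WIPF2 (0.0139) and PLPP2 (0.0147), and 171 genes lay within 0.1. With only 2 values per gene, and so many genes this close, the names single out no pattern of MYC or PVT1.

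The lincRNA regions are named on the array by their hg19 coordinates and a letter, F or R, read here as plus and minus strand. They lie in 2 stretches, one from chr8:128045018-128494384 with 24 probes and one from chr8:128807043-129118918 with 57 probes. No region of the array starts in the gap between them, where MYC is placed by general knowledge, and the second stretch runs along PVT1. Many regions overlap or share a start, so their probes are not independent, and whether probe sequences overlap was not analysed here.

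The fallen region was chr8:128807043-128820943 on strand F, at the upstream end of the PVT1 stretch. Its probe A_19_P00330666 gave an intensity of 570.5 in control (Cy3) and 398 in pre-miR-424 (Cy5) on the normal array, and 813.5 in control (Cy5) and 173.5 in pre-miR-424 (Cy3) on the swap. Its other probe, A_19_P00328150, gave 374 in control and 259 in pre-miR-424 on the normal array, and 653.5 in control and 145.5 in pre-miR-424 on the swap. For both probes the control RNA was the brighter one under either dye. On the normal array Cy3 outshone Cy5 at these probes before normalization, as it did at 1.11% of all measured probes.

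The log2 ratio of A_19_P00330666 was −1.08 (normal array) and −1.24 (swap), a mean of −1.16 ± 0.11 (SD, 2 arrays). That of A_19_P00328150 was −1.13 and −1.20, a mean of −1.17 ± 0.05 (SD, 2 arrays). The mean of the region was −1.16, with each probe lower by 2.24- or 2.25-fold, and the probes held ranks 19 and 20 from the lowest of all measured probes. With median centring A_19_P00330666 reached −0.998 on the normal array, just short of 2-fold, and −1.41 on the swap.

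Of the 5 probes whose regions begin at 128807043, 2 are the fallen probes by which the locus was chosen. All 5 had a mean ratio below 0, but they differed widely, and the median of all measured probes was −0.01. Nothing is read from this count, which also includes a probe that was not measured. The opposite strand of the fallen region (R, A_19_P00324404) was well above background only in control, on both arrays. Its ratios were −0.18 (normal array) and −0.14 (swap), and its level was at least 1.11-fold higher in control, against the lowest signal of a probe well above background. Of all probes on the array, 0.439% were well above background only in control on both arrays and 0.106% only in pre-miR-424. In the locus these counts were 1 and 0 of 84 probes.

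The other 2 probes with this start belong to a region that ends slightly further on, chr8:128807043-128821043. Its F probe was −0.31 (normal array) and −0.08 (swap), lower on both arrays but well short of the fallen region's probes, although the regions are nearly the same and on the same strand. Its R probe was 0.01 (normal array) and −0.41 (swap). Both probes were dim. On the normal array the F probe had 145.5 in control and 185 in pre-miR-424, over backgrounds of 28 and 74. The R probe had 122 and 197, over 25 and 71. With the scanner software's log ratio the F probe was −0.28 (normal array) and −0.37 (swap), and the R probe 0.04 and −0.97. The fall was therefore not seen with every probe designed to this stretch, and which transcripts each probe detects was not analysed here.

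Downstream of the fallen region on strand F, the region chr8:128825832-128830301 gave 0.04 (normal array) and 0.34 (swap). The region chr8:128830152-128832547 (A_19_P00320113), which overlaps its end, gave intensities of 504 in control and 582 in pre-miR-424 on the normal array, and 824 and 269 on the swap. Its log2 ratio was −0.38 (normal array) and −0.66 (swap), a mean of −0.52 ± 0.20 (SD, 2 arrays). It was the next lowest member of the locus and lay short of 2-fold on both arrays. Overlapping neighbours on 1 strand thus gave ratios of opposite sign.

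The strands along PVT1 were summarised separately. The 17 measured F probes of this stretch had a median ratio of −0.11, from −1.17 to 0.19, with 3 higher on both arrays, 7 lower on both and 7 of opposite sign. Without the 2 fallen probes the median of the remaining 15 was −0.03. The 18 measured R probes had a median of 0.00, from −0.20 to 0.34, with 4 higher on both arrays, 5 lower on both and 9 of opposite sign.

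Further along the PVT1 stretch, overlapping F regions gave values on either side of 0. The region chr8:129002837-129008911 was −0.34 (normal array) and −0.23 (swap). The long regions chr8:129008804-129108894 and chr8:129015583-129108805 had means of −0.17 and −0.18, lower on both arrays. The short region chr8:129008365-129008906, which lies inside the first of these 3, was 0.14 and 0.02. The shorter and the longer region thus differed in sign, by values not far from the error of a single array.

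On strand R the highest member was chr8:129001411-129082607 (A_19_P00318902), at 0.24 (normal array) and 0.44 (swap), a mean of 0.34 ± 0.14 (SD, 2 arrays). Its signals were near the limit, with 93 in control and 172 in pre-miR-424 on the normal array over backgrounds of 30 and 72. A region that starts a few bases further on, chr8:129001429-129082518, gave 0.17 and −0.19. At the downstream end of the stretch, 10 R probes start from 129108761 on, and 9 of them were measured. Of these 3 were higher on both arrays, 3 lower on both and 3 of opposite sign, with means from −0.18 to 0.16.

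Upstream of MYC no probe reached 2-fold in either direction. Of 24 probes 16 were measured, with a median of 0.07 and means from −0.08 to 0.31. On both arrays 4 were higher and 3 lower, and 9 had opposite signs. The highest was chr8:128181722-128182314 on strand R (A_19_P00319429), a bright probe with 4467.5 in control and 9315 in pre-miR-424 on the normal array and 7701.5 and 4397 on the swap. Its ratio was 0.42 (normal array) and 0.20 (swap), but −0.11 on the swap with median centring.

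Next to it, chr8:128174180-128181362 on strand R gave 0.20 and 0.14, while its F neighbour chr8:128173829-128181225 gave 0.14 and −0.06. Further on, 4 overlapping R regions that start between 128301923 and 128301946 had nearly the same ratios as one another but opposite signs on the arrays. They lay between −0.12 and −0.04 on the normal array and between 0.30 and 0.37 on the swap. The longest overlapping R region, chr8:128302061-128494384, gave −0.08 both times with its measured probe. Its other probe, which was not measured, gave −0.08 (normal array) and 0.24 (swap).

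Over the 54 measured probes of the locus, 15 were lower on both arrays (27.8%) and 11 higher (20.4%), beside 26.4% lower and 25.0% higher among all measured probes. Opposite signs were found for 28 (51.9%), beside 48.6% of all measured probes. The median ratio of the locus was 0.01, and that of the 3752 measured lincRNA probes elsewhere was −0.02. A mean within 0.5 of 0 was found for 51 of the 54 measured probes (94.4%), beside 97.5% of all measured probes.

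The 30 probes that were not measured had means from −0.32 to 0.19. Of these, 17 were in no channel well above background. Besides the R probe of the fallen region, 4 were well above background in control on both arrays but in pre-miR-424 only on the normal array, where it carried Cy5. The lowest of these 4, chr8:128822268-128941641 on strand R, was −0.30 (normal array) and −0.35 (swap). The reverse was seen for chr8:129001437-129108900 on strand R. It was well above background in pre-miR-424 on both arrays but in control only on the swap, where control carried Cy5. The share of all probes with either pattern was not computed, so nothing is read from these counts.

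At the borders of the window, the first measured region inside, chr8:128045018-128055593 on strand R, gave 0.18 and −0.17, and the last one, chr8:129111523-129113388 on strand R, gave −0.14 and −0.20. The nearest measured regions that start outside were chr8:127813702-128201457 on strand R, with −0.62 (normal array) and 0.41 (swap), and chr8:129323618-129355868 on strand R, with 0.09 and −0.01. The region chr8:127813702-128201457 reaches into the window and spans the first measured region inside.

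Genes that neighbour MYC on 8q24 were taken from a list made from general knowledge. Of 15 such genes 11 had a probe assigned to them by name and 8 were measured. Probes named by a lincRNA region were not counted for these genes. The 8 had a median ratio of −0.06, and 0 reached a log2 ratio of 0.5 on both arrays in either direction. Over all 13813 measured genes, 0.97% were higher and 0.825% lower by that rule, and the median was −0.00. At any size, 26.8% of measured genes were higher on both arrays, 26.7% were lower on both and 46.5% had opposite signs, and the sign counts of the lists below are given beside these shares. Of the 8 neighbours, 1 was higher on both arrays, 2 were lower on both and 5 had opposite signs. TRIB1, a pseudokinase scaffold, was 0.08 (normal array) and −0.51 (swap). MTSS1, an actin-binding protein, was −0.29 and −0.05 (−0.27 and 0.01 with its other probe). WASHC5, a subunit of the endosomal WASH complex, was −0.08 and −0.16. The highest means were those of LRATD2, at 0.01 and 0.36, and SQLE, an enzyme of cholesterol synthesis, at −0.19 and 0.24.

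Partners and relatives of MYC were next compared. Of 11 genes of the network, 10 were measured and 0 reached 0.5 on both arrays. The median was 0.01, with 3 higher on both arrays, 1 lower on both and 6 of opposite sign. MAX, the obligate partner of MYC, was 0.03 (normal array) and −0.31 (swap) with its brightest probe, but its other 2 probes gave 0.10 and 0.15, and −0.09 and −0.09, so the probes of MAX disagreed in sign. The 3 highest were MLX, a MAX-like partner of glucose-responsive factors, at 0.35 on both arrays, and the MAX-binding repressors MXI1, at 0.18 and 0.51, and MXD4, at 0.24 and 0.36. Among the lowest, MYCL was −0.05 and −0.11, and MXD3 was 0.11 and −0.17 (0.12 and −0.10 with its other probe), while MYCN was not measured.

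Of 15 cofactors and turnover factors of MYC, 14 were measured and 0 reached 0.5 on both arrays, with a median of 0.00. On both arrays 1 was higher and 5 were lower, and 8 had opposite signs. The 3 lowest all act in MYC phosphorylation or ubiquitination. HUWE1, a ubiquitin ligase, was −0.44 (normal array) and −0.25 (swap). GSK3B, a kinase that marks MYC for degradation, was −0.32 and −0.33. FBXW7, which recognises phosphorylated MYC, was −0.34 and −0.27. The highest were AURKA, a mitotic kinase that binds MYC family proteins, at 0.14 and 0.42, ZBTB17, a DNA-binding partner in repression, at 0.31 and −0.01, and KAT2A, an acetyltransferase, at 0.34 and −0.05.

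Of 30 genes known to be induced by MYC, 29 were measured and 0 reached 0.5 on both arrays. The median was −0.07, at −0.02 (normal array) and −0.12 (swap), with 4 higher on both arrays, 10 lower on both and 15 of opposite sign. The lowest were ODC1, which starts polyamine synthesis, at −0.54 and −0.34, the G1 kinase CDK4 at −0.42 and −0.27, and the cap-binding factor EIF4E at −0.58 and 0.01. The other measured probes of EIF4E were lower on both arrays, at −0.38 and −0.14, and at −0.29 and −0.10. The highest were PPAT, of purine synthesis, at 0.35 and 0.34, hexokinase HK2 at 0.21 and 0.27, and the nucleolar protein NOP16 at 0.19 and 0.16.

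Of 12 genes known to be repressed by MYC, 10 were measured and 0 reached 0.5 on both arrays. The median was 0.02 (−0.02 with median centring), at 0.04 on the normal array but −0.10 on the swap, with 2 higher on both arrays, 3 lower on both and 5 of opposite sign. The lowest were the cyclin-dependent kinase inhibitors CDKN1A, at −0.16 and −0.35, and CDKN1C, at −0.13 and −0.27, and the thioredoxin inhibitor TXNIP, at −0.06 and −0.12. The highest were the stress gene GADD45A, at 0.24 and 0.25, CDKN1B, at −0.13 and 0.35, and CDKN2B, at 0.18 and −0.02. The other measured probe of CDKN1B gave −0.00 and −0.26, a mean of −0.13 against 0.11 for the probe used, so no direction is given for this gene. The median over all measured genes was −0.00, and no test of these lists was made.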

How the data were processed

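The scanner files deposited by the authors hold, for each spot, median signal and local background as intensity on a linear scale, and a log10 ratio of Cy5 over Cy3 that Feature Extraction 10.7.3.1 had background-corrected and dye-normalized. A table deposited by the authors holds log2 ratios. Its scale and direction are not stated and were inferred here, as log2 of Cy5 over Cy3 with the swap left unturned, from correlations of 0.991 and 0.988 with the ratios computed here, and its column medians were 0.0236 and 0.0355. Its centring is unknown, and of its steps only limma is named in the submitters' notes.

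Median signals were corrected by normexp (offset 50, all spots), which draws the ratios of dim probes towards 0, and normalized by loess within each array with control spots at weight 0, in limma 3.58.1 (R 4.3.3). Spots of a probe were averaged. Both arrays were on 1 slide with 1 scan time. Aquantile scaling served only the level behind the bound. The normexp and loess steps were tested by multiplying the pre-miR-424 signal of some probes of these arrays by known folds. Tables were made in Python 3.11.15 with pandas 2.3.3 and numpy 2.4.6.

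Of 27134 probes with a RefSeq accession, 25771 (95.0%) were named through a RefSeq table (GRCh38.p14), used for names and gene order only. A gene was taken by its brightest measured probe. Changed meant that both arrays passed a log2 ratio of 1 in 1 direction, or of 0.5 for genes of the lists. Members of the locus are given by value or by range. In each list, genes past the threshold and up to 3 of the largest mean ratios in each direction were named, with the 3 genes nearest to MYC and to PVT1. Some genes that were not measured were named in addition. Members and lists were chosen with earlier results of these data known. A further list of cell type markers is not reported here. The results were recomputed with the smaller offset of 16 or uncorrected background, with median centring, from the scanner ratio and from the deposited table, under weaker filters on dim spots, with outliers retained, from single arrays, with a gene's probes averaged, and at 1.5-fold.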

Additional observations from a re-analysis of the deposited data

How the results depend on the processing

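Alternatives are given by their values, since filters on dim or outlier spots could not move a probe that passed them, and for a single probe or region either array alone lies within 1 SD of the mean by construction. The fallen region, at −1.16, was −1.30 with an offset of 16 and −1.46 with the scanner software's log ratio, and −1.22 to −1.11 with each array alone. The count of changed locus probes, 2, was 1 with median centring. With each array alone, MYC was −0.13 to 0.10, PVT1 was −0.10 to 0.36, the median of MYC-induced genes was −0.12 to −0.02, and that of MYC-repressed genes, 0.02, was −0.0998 to 0.0430. The last was also −0.02 with median centring and −0.01 with the mean over a gene's probes, where PVT1 was 0.07. No paired analysis was possible because the 2 arrays are a dye swap of 1 pair of RNAs and form 1 group. Of the 84 probes of the locus, 30 were not measured (35.7%, beside 39.5% of all probes), and differences between cultures cannot be estimated from these arrays.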
